A study of Caenorhabditis elegans with 13 samples.

Results

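Body wall muscle cells of Caenorhabditis elegans embryos that had been kept in culture for 24 hr (M24, 3 arrays) were compared with muscle cells sorted straight after dissociation of the embryos (M0, 3 arrays). These 6 arrays, chosen by their titles, are part of a set of 13 Affymetrix C. elegans arrays. The muscle cells of both times came from strain PD4251, which carries an integrated myo-3::GFP transgene (ccIs4251), and were taken by fluorescence-activated cell sorting of GFP-positive, propidium iodide-negative cells. The promoter of myo-3, a muscle myosin gene, is active in body wall muscle and in a few other non-pharyngeal muscles, so that the sorted cells were enriched for body wall muscle and not pure. The remaining arrays held all viable cells of wild-type N2 embryos, sorted after 24 hr in culture (R24, 4 arrays) or at once (R0, 3 arrays), and serve here to show what all embryonic cells did over the same time. All 4 groups were dissociated with chitinase, and total RNA of each sample was amplified in 2 rounds. The labels call the arrays of a group biological replicates. Time, culture and chip lot go together in M24 against M0 and cannot be told apart: all M24 arrays came from 1 chip lot and all M0 arrays from another, and no scan day held arrays of both. The sources used here do not give how the deposited values were normalized across the times. Arrays of the same time had 56 to 1410 distinct values in common and arrays of different times 0 to 2, from which separate normalization of the times is inferred. R0 replicate 1 shared its scan day with M0 replicate 1 and R0 replicate 3 with M0 replicate 2, and R24 replicates 1, 2 and 3 were all scanned on 1 day.

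Body wall muscle is the main muscle of the embryo. Its cells stop dividing, build sarcomeres of myosin and actin filaments, anchor them through integrin complexes to the basement membrane, and receive acetylcholine and GABA from motor neurons. The MyoD homolog hlh-1, the serum response factor homolog unc-120 and the HAND homolog hnd-1 act together to set this fate. In the embryo the contractile genes are expressed, and the muscle contracts, before hatching. In culture, dissociated blastomeres of all lineages differentiate side by side, outside the arrangement that they have in the embryo.

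Deposited intensities (probe-set signals on a linear scale) were log2-transformed, and the 6 muscle arrays were quantile normalized together. The probe set with the highest mean intensity stands for a gene, and intensities below are these normalized values, which cannot be ranked between genes. A gene was called raised or lowered in M24 where the limma moderated test, adjusted over all 22548 probe sets by the Benjamini-Hochberg method, gave an adjusted p under 0.05 and a fold change of at least 1.7. Changes are log2 fold changes, M24 minus M0, ± the standard error (SE) of that fit with n = 3 and 3. Before normalization the median intensity of the 6 arrays lay between 50.7 and 58. Replicate pairs had a mean R2 of 0.871 in M24 (0.797 to 0.959) and of 0.923 in M0 (0.904 to 0.944), while M24 with M0 pairs had 0.710 to 0.809. M24 replicate 3 stood apart, with a range of 3.91 between the lowest and the highest decile of its deposited log2 values, against 4.50 and 4.86 on the other M24 arrays and 3.53 to 4.13 on the M0 arrays. Bulk RNA cannot tell fewer cells of a kind from less RNA per cell.

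Both groups were sorted by GFP from the myo-3 promoter, so the level of myo-3 in them does not check the sort. myo-3, whose promoter drives the sorted GFP, had intensities of 453.5, 294 and 292.8 in M24, against 597.3, 640.7 and 1329.6 in M0. It was lower on every M24 array than on any M0 array, as 21.9% of all genes were. At -1.24 ± 0.35 it did not pass (adjusted p = 0.0515). myo-3 was called lowered with the filter on dim probe sets, with array weights or with an intensity trend. Muscle structure genes were well above the level of all cells at both times: with all 13 arrays normalized together, the summed intensity of 30 sarcomere genes was 47146 to 60924 in M24 and 67023 to 73096 in M0, against 17335 to 22974 in R24 and 32768 to 34500 in R0. Sums of 23 attachment genes were 15264 to 19051 in M24 and 33565 to 34282 in M0, against 6671 to 9605 in R24 and 15628 to 17436 in R0. Sums of 12 muscle regulators were 2106 to 2803 in M24 and 5515 to 5713 in M0, against 1007 to 1222 in R24 and 1629 to 2186 in R0. Each M24 array exceeded each R24 array, and each M0 array each R0 array, in all 3 sums. The study lists genes of these lists, such as tnt-3, pat-4 and rnt-1, as enriched in muscle on these same arrays. The sums are therefore not independent evidence that the sort worked. Neuron markers, 40 genes, summed to 6207 to 6678 in M24 and 6837 to 7514 in M0, against 11929 to 18619 in R24 and 17232 to 20003 in R0.

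Of 17118 genes, 1251 were raised in M24 (7.31%) and 1315 were lowered (7.68%), corresponding to 1647 (7.30%) and 1687 (7.48%) of 22548 probe sets. These percentages are the background against which the M24 minus M0 counts of each list below are read. All 3 M24 arrays lay above all 3 M0 arrays for 19.3% of genes and below them for 21.9%. Most genes named below were picked by the size of their change, so a lack of overlap in them is no further evidence. The median change of all genes was -0.02, and that of the values as deposited was 0.03. The numbers depended on single arrays: 482 of the 1251 raised and 549 of the 1315 lowered genes kept their call whichever 1 array was left out. Without M24 replicate 1 limma called 715 probe sets raised and 817 lowered, and without M24 replicate 3 it called 2349 and 1989. Without M0 replicate 1, 2 or 3 it called 938, 1035 and 948 raised and 1088, 1252 and 1052 lowered. In the values as deposited, without joint normalization, the split was 1999 raised and 1154 lowered, so that the balance of rises and falls depended on the normalization. Below, a call is said to be lost without an array where the fit to the other 5 arrays no longer made it. Where another setting moved a list's count or median, or ended or gave a call of a named gene, it is named in the paragraph or in the closing sections: the values as deposited, each array centred on its median, within-array ranks, joint normalization of 13 arrays, limma's array weights, or an intensity trend. Of the 202 called genes named in the text, 58 had further probe sets, which were all called the same way for 19, while none was for 36.

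All embryonic cells also changed between the times. In R24 minus R0, fitted the same way on the 7 reference arrays, 2188 genes were raised (12.8%) and 2345 lowered (13.7%). Counts of list members called in all cells are read against these higher shares. Of the genes raised in M24, 901 were raised in R24 too, which is 72.0% of the muscle list and 41.2% of the reference list, while 15 were lowered and 335 were not called. Of the genes lowered in M24, 895 were lowered in R24 (68.1% of the muscle list and 38.2% of the reference list), 5 were raised and 415 were not called. Over the 17118 genes the change in muscle and the change in all cells had a Pearson correlation of 0.728. No array is used in both comparisons, but both set one culture time and chip lot against the other. A change that muscle shares with all cells is therefore given with both values, and the difference of the 2 changes, muscle minus all cells, was tested on the deposited values of all 13 arrays. This difference was called higher in muscle for 178 genes (1.04%) and lower in muscle for 163 (0.952%). The test took no account of the shared scan days. A fit with scan day as a random block was added after the data had been seen, on the 12 arrays that have a scanner record. In it limma called 37 probe sets higher and 35 lower in muscle. Without the block it called 115 and 141 on the same 12 arrays, which lack R24 replicate 4. On all 13 arrays it called 211 and 224. Of the 32 called differences among the genes named in the text, 15 were kept in the block fit.

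**Figure D1:**
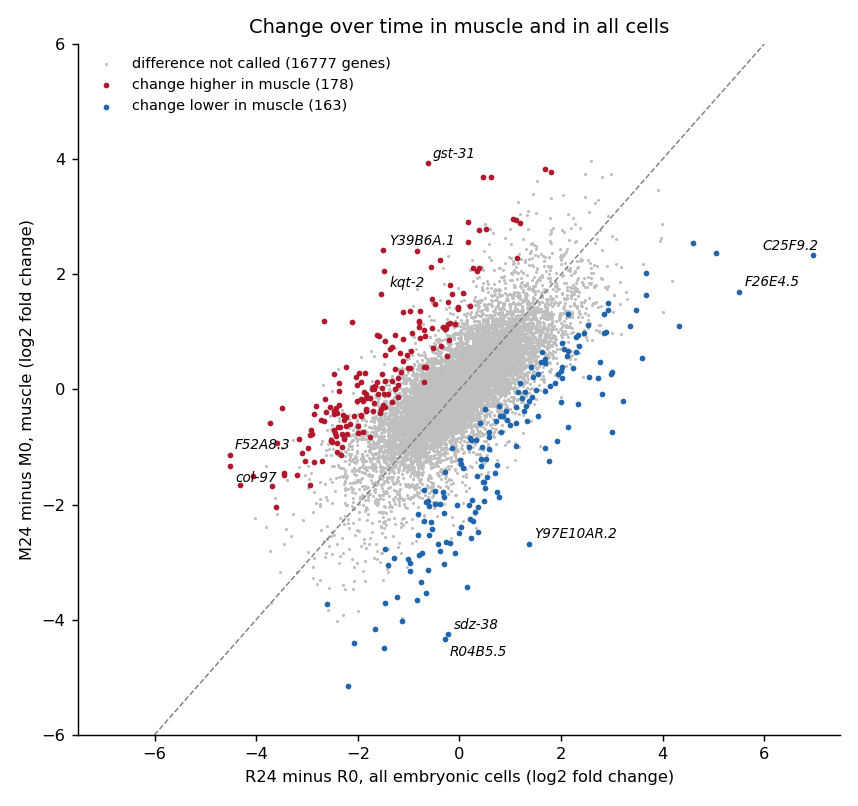
Change over time of 17118 genes in muscle (M24 minus M0, vertical axis) against that in all embryonic cells (R24 minus R0, horizontal axis), both as log2 fold changes after quantile normalization, with the line of equal change dashed. In the 178 red genes the change in muscle exceeded that in all cells, and in the 163 blue genes it was less, by the test of the difference on deposited values, and either set holds both raised and lowered genes, with gst-31 high among the red and sdz-38 and R04B5.5 low among the blue genes.

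The 10 largest rises were those of F55C5.2, gst-31, ugt-48, nra-1, Y75B12B.3, Y57G11C.20, W06H8.2, hsp-70, cpn-4 and tatn-1, between 3.61 and 3.96. F55C5.2 had intensities of 1336, 1031 and 586.7 in M24, against 100.7, 27.7 and 77 in M0 (3.96 ± 0.52, adjusted p = 0.00503). gst-31, a glutathione S-transferase gene, had 1226, 1182 and 1537 in M24, against 131.6, 41.6 and 114.5 in M0 (3.93 ± 0.43, adjusted p = 0.0029). It was the one among them whose change in all cells was below 0, at -0.63. ugt-48, which encodes a glucuronosyltransferase that conjugates lipophilic compounds, had 510.2, 515.4 and 600.4 in M24, against 40.3, 33.4 and 41.4 in M0, with little spread in either group (3.82 ± 0.16, adjusted p = 0.000467). nra-1, which encodes a copine found with nicotinic acetylcholine receptors, had 1939.8, 1402 and 1696 in M24, against 169.7, 90.5 and 116.9 in M0 (3.77 ± 0.26, adjusted p = 0.00101). tatn-1, the tyrosine aminotransferase gene, had 928.6, 842.6 and 1924 in M24, against 81.1, 82 and 123.6 in M0 (3.61 ± 0.35, adjusted p = 0.0022). M24 lay above M0 without overlap in each of these genes, as in 19.3% of all genes. They had been picked by the size of their change.

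cpn-4, a calponin family gene, had 1359, 590.6 and 870.1 in M24, against 62.8, 63.9 and 80.3 in M0 (3.69 ± 0.31, adjusted p = 0.00154), and its change in all cells was 0.63 and not called. The uncharacterised genes Y57G11C.20 (3.74 ± 0.16), Y75B12B.3 (3.75 ± 0.5) and W06H8.2 (3.7 ± 0.41) were raised with adjusted p-values of 0.000467, 0.00505 and 0.00291. hsp-70, a heat-inducible member of the Hsp70 chaperones, had 1680.4, 1787 and 114.6 in M24, against 62.6, 46.6 and 54.2 in M0 (3.69 ± 1, adjusted p = 0.0461). Its level on M24 replicate 3 was far below that on the other M24 arrays, though still above every M0 array. hsp-70 lost its call without any 1 array but M24 replicate 3 (highest value of the adjusted p 0.138). hsp-70 was not called after median centring alone.

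The 10 largest falls reached further, to -5.14 for F21H7.3, which had 46, 36 and 46.3 in M24, against 2108, 1311 and 1228 in M0 (-5.14 ± 0.25, adjusted p = 0.000483). str-148, named for its place in a family of seven-transmembrane chemoreceptors, had 32.1, 26.8 and 41.6 in M24, against 1310.2, 538.2 and 571.5 in M0 (-4.49 ± 0.37, adjusted p = 0.00147). sdz-38, named as a zygotic gene that depends on the endoderm and mesoderm regulator SKN-1, had 85.5, 46.9 and 57.2 in M24, against 986.1, 1189 and 1355 in M0 (-4.25 ± 0.26, adjusted p = 0.000697). In each of these 3 genes the groups were far apart. R04B5.5 had 47.6, 50.5 and 31.9 in M24, against 974.5, 721.1 and 908.4 in M0 (-4.34 ± 0.23, adjusted p = 0.000563), and R04B5.6, next to it by name, had 95.2, 47.9 and 28.9 in M24, against 1048, 573.7 and 842.2 in M0 (-3.97 ± 0.44, adjusted p = 0.00309). lbp-3, a fatty acid binding protein gene, had 63.9, 37 and 68.7 in M24, against 1099, 894.8 and 563.5 in M0 (-3.91 ± 0.33, adjusted p = 0.00162). All 10, picked by the size of their change, were lower on each M24 array than on any M0 array, as 21.9% of all genes were. F35D2.3 (-4.41 ± 0.24), F48D6.4 (-4.16 ± 0.29), tmem-24 (-4.03 ± 0.47) and K08E7.8 (-4.02 ± 0.29) completed them, with adjusted p-values of 0.000563 to 0.0035. In all cells R04B5.5 and sdz-38 stood at -0.29 and -0.22 and were not called, nor was R04B5.6 (-1.13), while the other 7 were lowered there, with changes of -1.14 to -2.41.

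The proteasome, the barrel-shaped protease that degrades ubiquitin-tagged proteins, had the highest share of raised genes among the 41 lists. Of 33 measured subunit genes 31 were raised in M24 (93.9%, against 7.31% of all genes) and 0 were lowered, with a median change of 2.1 and all 33 above 0. All M24 arrays lay above all M0 arrays for the same number, 31, against 19.3% of all genes. Protein degradation by the proteasome is a theme that the study took from these samples, so its count is not independent evidence of the direction. The group was raised in all cells as well, with 22 of 33 raised in R24 (against 12.8% of all genes) and a median of 1. The difference of the 2 changes was called for 1 subunit, pbs-7, named for this reason after its values were seen (1.55 ± 0.3, adjusted p = 0.0223). Of the 31 raised genes 23 kept their call whichever 1 array was left out. Over all proteasome genes the median was 1.24 on ranks. The difference of pbs-7 was not called with scan day as a random block (adjusted p = 0.109). It was also lost without any 1 of 5 of the 13 arrays.

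The core particle, a stack of rings of alpha (pas) and beta (pbs) subunits, had all 14 genes raised, with a median of 2.22 and changes of 1.72 to 2.81. pas-4 had 1989, 1714 and 1085 in M24, against 158.6, 268.5 and 265.8 in M0 (2.78 ± 0.31, adjusted p = 0.00291). pbs-3 had 1227, 1311 and 530.9 in M24, against 148.7, 122.4 and 146.9 in M0 (2.77 ± 0.35, adjusted p = 0.00447), and pas-7 had 1165, 920.4 and 341.8 in M24, against 88.5, 83.6 and 150.6 in M0 (2.79 ± 0.48, adjusted p = 0.0114). In each of them M24 replicate 3 was the lowest of the M24 arrays and yet above every M0 array. pbs-4 had 1157, 1516 and 338.2 in M24, against 177.1, 57.9 and 168.5 in M0 (2.81 ± 0.66, adjusted p = 0.029), and pbs-7 had 1411, 1581 and 1346 in M24, against 378.6, 323.8 and 308 in M0 (2.1 ± 0.16, adjusted p = 0.00119). The ring of ATPases that unfolds substrates had 5 of 6 genes raised, with a median of 1.77, and the remaining regulatory subunits 12 of 13, with a median of 1.79. The 2 that were not called, chosen for mention after their values were seen, overlapped only through M24 replicate 3: rpt-6 had 572, 509.9 and 189.8 in M24, against 114.5, 141.8 and 194.4 in M0 (1.38 ± 0.44, adjusted p = 0.0728) and rpn-13 had 448.9, 545.9 and 89.6 in M24, against 78.4, 69.5 and 98.2 in M0 (1.79 ± 0.65, adjusted p = 0.102). pbs-4 lost its call without any 1 array but M24 replicate 3 (highest value of the adjusted p 0.0979). pbs-4 was not called after median centring alone. rpt-6 and rpn-13 were called raised with array weights or without M24 replicate 3.

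**Figure D2:**
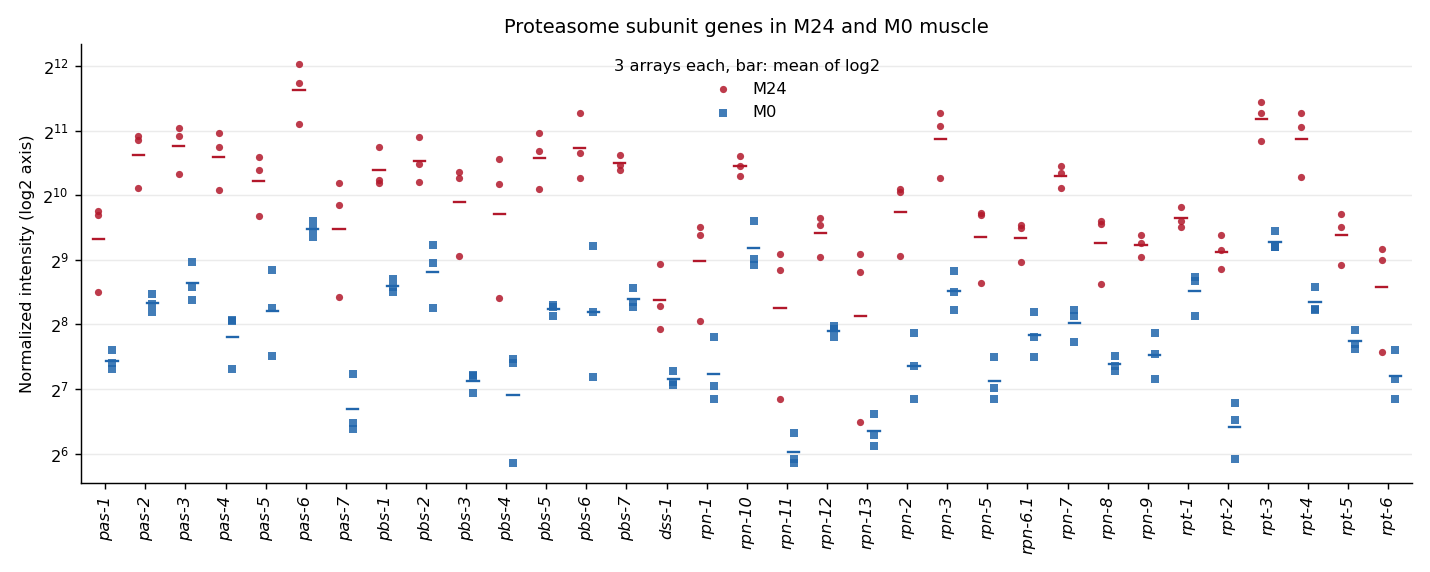
Normalized intensity (log2 axis) of 33 proteasome subunit genes on the 3 M24 arrays (circles) and the 3 M0 arrays (squares), with bars at the mean of the log2 values, core particle genes first. The M24 values lie above the M0 values in 31 genes, and the lowest M24 point of rpt-6 and rpn-13 falls among the M0 points.

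Most sarcomere genes were not called. Of 30 measured genes 5 were lowered (16.7%, against 7.68% of all genes) and 0 raised, with a median of -0.28 and 25 not called. Lowered sarcomere genes numbered 3 as deposited, 2 after median centring, 1 on ranks, 8 with array weights and 9 with an intensity trend. Over all sarcomere genes the median was -0.18 on ranks. In all cells 12 of the 30 were lowered (against 13.7% of all genes), with a median of -0.56. The difference was called for 0 of the 30, against 1.04% of all genes higher and 0.952% lower in muscle. tnt-3, which encodes a troponin T of the thin filament, had 393.3, 431.8 and 447 in M24, against 2439, 1877 and 2255 in M0 (-2.36 ± 0.16, adjusted p = 0.00101). unc-82, which encodes a protein kinase needed to organise thick filaments, had 687.7, 942.4 and 831.7 in M24, against 1815, 1837 and 1957 in M0 (-1.2 ± 0.17, adjusted p = 0.00629). mlc-1, a regulatory myosin light chain gene, had 1655, 1282 and 1407 in M24, against 3609, 4220.4 and 2569 in M0 (-1.24 ± 0.22, adjusted p = 0.0134), and mlc-3, an essential light chain gene, had 2925, 2188 and 2478 in M24, against 5614, 5124 and 3402 in M0 (-0.88 ± 0.23, adjusted p = 0.0439). M24 lay below M0 without overlap in these 4 called genes, as in 21.9% of all genes. At an unadjusted p under 0.05, 0 sarcomere genes were above 0 and 12 below, and with array weights limma called 1 raised. mlc-1 lost its call without M0 replicate 1 (highest value of the adjusted p 0.0521). mlc-3 lost its call without any 1 array but M0 replicate 3 (highest value of the adjusted p 0.124). unc-82 was not called after median centring alone or on within-array ranks. mlc-1 was not called on within-array ranks. mlc-3 was not called as deposited, after median centring alone, on within-array ranks, with all 13 arrays normalized together or with array weights. unc-82 and mlc-3 had no other probe set called.

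Several abundant contractile proteins come from genes that were lower on every M24 array, as 21.9% of all genes were, and that were not called. pat-10, the body wall troponin C gene, had 5244, 4526 and 3845 in M24, against 7064, 6481 and 6997 in M0 (-0.6 ± 0.17, adjusted p = 0.0502, below the fold minimum). act-4, an actin gene, had 3368, 3909 and 3795 in M24, against 5203, 5633 and 4106 in M0 (-0.42 ± 0.18, adjusted p = 0.144), and mlc-2 had 3795, 1219 and 3307 in M24, against 5511, 5614 and 8455 in M0 (-1.36 ± 0.44, adjusted p = 0.0755). unc-54, the major body wall myosin heavy chain gene, named here after its values were seen, had 1650.3, 1005 and 743.9 in M24, against 577, 990.9 and 1735 in M0, groups that overlapped widely (0.1 ± 0.45, adjusted p = 0.894). mlc-1 and mlc-2, and the actin genes among themselves, are nearly identical in sequence, so that their probe sets may share signal. The count of lowered sarcomere genes was 2 to 6 on leaving out 1 array (2 without M0 replicate 1, and 3 without M24 replicate 1 or M0 replicate 2), and the median -0.48 without M24 replicate 1 and -0.12 without M0 replicate 3. mlc-2 was called lowered with array weights or with an intensity trend.

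Genes of the attachment complex, which ties the sarcomere through integrin to the cell membrane, had more calls. Of 23 genes 13 were lowered (56.5%) and 0 raised, with a median of -1.06, and 9 of the 13 kept their call whichever array was left out. pat-6, the actopaxin (parvin) gene, had 854.6, 563.8 and 771.4 in M24, against 2706, 2615 and 2675 in M0 (-1.89 ± 0.19, adjusted p = 0.00244). pat-4, the integrin-linked kinase gene, had 274.8, 207.9 and 137.1 in M24, against 1054, 745.6 and 1081 in M0 (-2.25 ± 0.29, adjusted p = 0.00459). pat-2, the alpha integrin subunit gene of muscle, had 244.2, 246.2 and 225.7 in M24, against 775.4, 892.8 and 681.2 in M0 (-1.71 ± 0.16, adjusted p = 0.00205). The M0 values of pat-6 were close to each other. In each of these called genes M24 lay below M0 without overlap, as in 21.9% of all genes. alp-1, which encodes an ALP/Enigma protein of dense bodies, had 608, 405.2 and 271.8 in M24, against 1256, 1251 and 1829.5 in M0 (-1.81 ± 0.32, adjusted p = 0.0125). In all cells 14 of 23 were lowered (against 13.7% of all genes), with a median of -0.95. No member was called in the difference, against 1.04% of all genes higher and 0.952% lower in muscle. There the changes of pat-4, pat-6, alp-1 and pat-2 differed from those of all cells by -0.85 ± 0.5, -0.96 ± 0.32, -0.54 ± 0.5 and -0.4 ± 0.35. alp-1 was not called as deposited or after median centring alone. pat-2 and alp-1 had no other probe set called. Lowered muscle attachment genes numbered 8 as deposited or on ranks and 7 after median centring. Over all muscle attachment genes the median was -0.54 on ranks.

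The dystrophin complex, which links the cytoskeleton of muscle to its surroundings and is the complex affected in human muscular dystrophies, had 8 of 10 measured genes lowered (80%) and all 10 below 0, with a median of -1.38. sgca-1, the alpha sarcoglycan gene, had 398.4, 315.2 and 385.6 in M24, against 2719, 1686 and 1334 in M0 (-2.33 ± 0.28, adjusted p = 0.00373). sgcb-1, the beta sarcoglycan gene, had 264.5, 281.3 and 90.1 in M24, against 1171, 936.4 and 830.9 in M0 (-2.36 ± 0.44, adjusted p = 0.0146), with its lowest value on M24 replicate 3. stn-1, a syntrophin gene, had 207.2, 208.8 and 162.1 in M24, against 752.5, 688.2 and 961.5 in M0 (-2.05 ± 0.2, adjusted p = 0.00209). dyc-1, which encodes a protein related to the adaptor CAPON, had 229.9, 302.3 and 124.5 in M24, against 1352, 1146 and 882.2 in M0 (-2.43 ± 0.34, adjusted p = 0.00631). M24 lay below M0 without overlap in these 4 called genes, as it did in 21.9% of all genes. In all cells 5 of 10 were lowered (against 13.7% of all genes) with a median of -0.73, where sgcb-1 stood at -0.14 and was not called. The difference was called for 0 of the 10, against 1.04% of all genes higher and 0.952% lower in muscle. Of the 8 lowered genes 5 kept their call on leaving out any 1 array, and 5 were called without M0 replicate 1. sgcb-1 lost its call without M0 replicate 1 or 2 (highest value of the adjusted p 0.0585). sgcb-1 was not called as deposited or after median centring alone. dyc-1 had no other probe set called. Lowered dystrophin complex genes numbered 3 as deposited or after median centring. Over all dystrophin complex genes the median was -0.85 on ranks.

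Receptors of the neuromuscular junction had 10 of 18 genes lowered (55.6%) and 0 raised, with a median of -1.13. lev-8, a subunit gene of the levamisole-sensitive acetylcholine receptor, had 107.3, 145.8 and 43.4 in M24, against 1294, 1206 and 1310.2 in M0 (-3.85 ± 0.42, adjusted p = 0.0029), the deepest fall of the list. unc-29, another subunit gene of this receptor, had 245.7, 275.2 and 107.3 in M24, against 888.3, 976.2 and 1027 in M0 (-2.31 ± 0.35, adjusted p = 0.00799), and acr-8, also of the levamisole receptor class, had 240.0, 225.6 and 744.7 in M24, against 2346, 1149.8 and 2127 in M0 (-2.38 ± 0.51, adjusted p = 0.0223). On M24 replicate 3 lev-8 and unc-29 were at their lowest and acr-8 at its highest within M24. glr-8, a glutamate receptor-like gene, was at -2.26 ± 0.15 (adjusted p = 0.000781), with replicates close together. Of the 10 lowered genes 7 kept their call whichever array was left out. In all cells 14 of 18 were lowered (against 13.7% of all genes), with a median of -1.04. In the difference 0 of 18 were called, against 1.04% of all genes higher and 0.952% lower in muscle. acr-8 lost its call without M24 replicate 1 or 2 or M0 replicate 1 or 3 (highest value of the adjusted p 0.0781). Over all neuromuscular receptors the median was -0.78 as deposited, -0.84 after median centring and -0.71 on ranks.

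The list of calcium handling and membrane excitation had 11 of 27 genes lowered (40.7%) and 0 raised, with a median of -0.91. twk-18, a two-pore potassium channel gene of body wall muscle, had 1131, 552.5 and 1146 in M24, against 4106, 2940.4 and 2623 in M0 (-1.82 ± 0.33, adjusted p = 0.0134). sup-10, a regulatory subunit gene of another such channel, had 47.4, 41.6 and 53.8 in M24, against 144, 106.2 and 162 in M0 (-1.52 ± 0.21, adjusted p = 0.00574). The groups were separate in both, with M24 below M0, as in 21.9% of all genes. unc-68, the ryanodine receptor gene, had 624.3, 548 and 197.1 in M24, against 1423, 1026 and 2085 in M0 (-1.83 ± 0.48, adjusted p = 0.0405), and jph-1, the junctophilin gene that holds the calcium store at the membrane, had 179.8, 135.6 and 168.9 in M24, against 262.4, 447.3 and 792.6 in M0 (-1.5 ± 0.39, adjusted p = 0.039). In all cells these 4 genes changed by -1.76, -1.34, -1.5 and -1.55, each called. Of the 11 lowered genes 4 kept their call on leaving out any 1 array, and the count was 5 without M0 replicate 1, 2 or 3, 6 without M24 replicate 1 and 7 without M24 replicate 2, and the median -0.59 without M24 replicate 3 or M0 replicate 3. unc-68 lost its call without any 1 array but M24 replicate 3 (highest value of the adjusted p 0.121). jph-1 lost its call without M24 replicate 1 or 2 or M0 replicate 2 or 3 (highest value of the adjusted p 0.102). unc-68 and jph-1 were not called as deposited or after median centring alone. Lowered muscle calcium and excitation genes numbered 3 as deposited or after median centring and 7 on ranks. Over all muscle calcium and excitation genes the median was -0.48 as deposited, -0.53 after median centring, -0.57 on ranks and -0.70 with array weights.

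**Figure D3:**
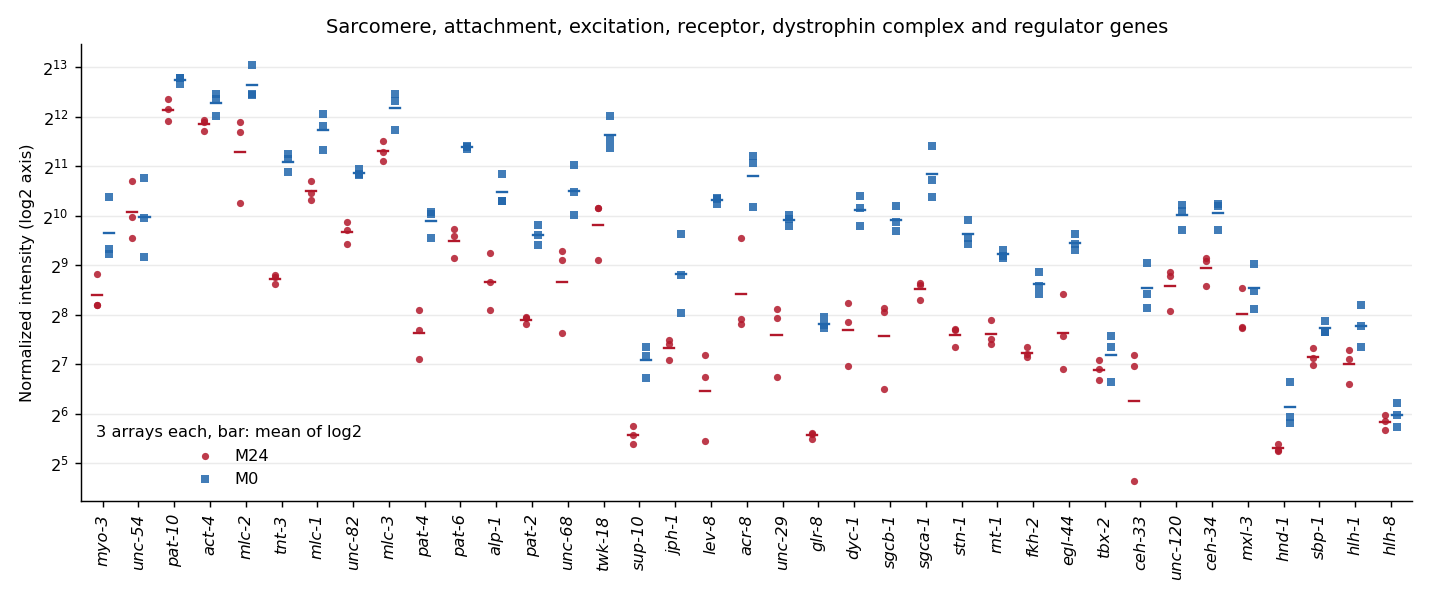
Normalized intensity (log2 axis) of 37 genes of sarcomeres, attachment, excitation, receptors, the dystrophin complex and muscle regulators on the 3 M24 arrays (circles) and the 3 M0 arrays (squares), with bars at the mean of the log2 values. The groups overlap for unc-54 and come close to each other without overlap for hlh-1. The mean of lev-8 in M24 lies further below that in M0 than those of act-4 and pat-10 do.

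Of 12 genes in the list of muscle regulators 5 were lowered (41.7%) and 0 raised, and all 12 changes were below 0 (median -0.97). Some members, such as fkh-2 and egl-44, are listed by the study as enriched in M0 only. None of the 12 is among the factors that it lists as enriched in M24 only. The direction of the list is therefore not independent of these data, and a role in muscle is not known for every member. rnt-1, the Runx gene, had 169, 238.8 and 181.6 in M24, against 635.7, 583.6 and 567.4 in M0 (-1.61 ± 0.18, adjusted p = 0.00309), and fkh-2, a forkhead gene, had 148.1, 162.8 and 141 in M24, against 468.2, 339.8 and 379.6 in M0 (-1.38 ± 0.17, adjusted p = 0.00442). In all cells neither was called (-0.56 and -0.35). The difference from all cells was called for 0 of the 12 genes, against 1.04% of all genes higher and 0.952% lower in muscle. unc-120 had 442.3, 466.1 and 270.3 in M24, against 1086, 842.6 and 1182 in M0 (-1.43 ± 0.26, adjusted p = 0.0132). egl-44, a TEA domain factor gene, and ceh-34, a sine oculis family homeobox gene, were at -1.83 ± 0.37 (adjusted p = 0.0185) and -1.11 ± 0.23 (adjusted p = 0.0202). hlh-1, the MyoD homolog, had 155.5, 138 and 96.6 in M24, against 162.3, 293.8 and 219.4 in M0. Its M24 values lay below its M0 values, as for 21.9% of all genes, but it was not called (-0.78 ± 0.28, adjusted p = 0.0984). ceh-33, of the same family as ceh-34, was at -2.27 ± 0.66 (adjusted p = 0.0563), its value on M24 replicate 3 being far below the rest. hnd-1 (-0.83 ± 0.24, adjusted p = 0.0562), the lipid regulator sbp-1 (-0.58 ± 0.17, 0.0546), mxl-3 (-0.53 ± 0.31, 0.284), the T-box gene tbx-2 (-0.3 ± 0.27, 0.481) and the Twist gene hlh-8 (-0.14 ± 0.18, 0.64) were not called either. unc-120 lost its call without M0 replicate 1 or 3 (highest value of the adjusted p 0.0531). egl-44 lost its call without M24 replicate 1 or M0 replicate 1, 2 or 3 (highest value of the adjusted p 0.0677). ceh-34 lost its call without M24 replicate 1 or M0 replicate 2 or 3 (highest value of the adjusted p 0.0745). Leaving out 1 array gave 2 to 6 lowered regulators: 3 without M24 replicate 1, M0 replicate 1 or M0 replicate 2, and 2 without M0 replicate 3. rnt-1 was not called after median centring alone. fkh-2, unc-120 and egl-44 were not called as deposited or after median centring alone. ceh-34 was not called as deposited, after median centring alone or on within-array ranks. ceh-33 was called lowered with the filter on dim probe sets, with array weights, with an intensity trend, without M24 replicate 2 or without M24 replicate 3. hnd-1 was called lowered on ranks, after median centring or with an intensity trend. fkh-2 and egl-44 had no other probe set called. At limma's unadjusted p under 0.05, 0 genes of the lists of attachment, receptors, the dystrophin complex and regulators had a change above 0, and 1 of calcium and excitation, 1 of basement membrane, 1 of innexins and 1 of oxidative phosphorylation had. Below 0 the same counts were 0 for the proteasome, 1 for ribosome biogenesis and 1 for DNA replication. Lowered muscle regulators numbered 1 as deposited or after median centring. Over all muscle regulators the median was -0.80 as deposited, -0.76 on ranks and -0.84 with array weights.

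Factors of the earlier mesoderm and blastomere lineages, 22 genes, had 0 called in either direction. At an unadjusted p under 0.05 limma had 1 above 0 and 2 below. The smallest p was that of scrt-1, a Scratch family zinc finger gene, with 72.3, 60.6 and 60.7 in M24, against 84.2, 100.5 and 96.6 in M0 (-0.54 ± 0.16, adjusted p = 0.059). Among 6 Hox genes, which give cells their place along the body, 1 was lowered: ceh-13, the labial homolog, had 55.6, 58.3 and 60.3 in M24, against 170.8, 176.4 and 207.1 in M0 (-1.67 ± 0.15, adjusted p = 0.00185), close values within each group. The central and posterior genes lin-39 (0.3 ± 0.45), mab-5 (-0.31 ± 0.27), egl-5 (0.73 ± 0.29), nob-1 (-0.18 ± 0.37) and php-3 (0.06 ± 0.23) were not called, with adjusted p-values of 0.123 to 0.884. In all cells egl-5, lin-39 and php-3 were raised (0.95, 1.2 and 0.9), where 12.8% of all genes were. The difference was called for 0 of the 6 Hox genes, against 1.04% of all genes higher and 0.952% lower in muscle. Lowered early lineage factors numbered 3 without M24 replicate 3.

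Basement membrane genes, for the sheet to which muscle anchors, had 8 of 22 lowered (36.4%) and 0 raised, with a median of -0.88. mig-17, which encodes a secreted ADAMTS protease made by muscle, had 121.3, 145.6 and 67.9 in M24, against 963.9, 876.5 and 938.4 in M0 (-3.12 ± 0.29, adjusted p = 0.00188). mig-6, the papilin gene, had 925.2, 806.2 and 1189 in M24, against 2173, 2925 and 2058 in M0 (-1.29 ± 0.22, adjusted p = 0.0108). emb-9, a type IV collagen gene, and nid-1, the nidogen gene, were at -1.26 ± 0.34 (adjusted p = 0.0436) and -1.27 ± 0.26 (adjusted p = 0.0198), while in all cells they stood at -0.39 and 0.33 and were not called. No basement membrane gene was called in the difference, against 1.04% of all genes higher and 0.952% lower in muscle. Of the 8 lowered genes 2 kept their call on leaving out any 1 array. The count of 8 lowered genes became 2 without M0 replicate 1, 3 without M24 replicate 1 and 4 without M0 replicate 3. Innexins, the gap junction proteins of invertebrates, had 7 of 24 lowered (29.2%) and 0 raised, with inx-2 (75.7, 63.2 and 95.6 in M24, against 403.5, 281 and 332.4 in M0) at -2.12 ± 0.22 (adjusted p = 0.00251), inx-13 at -1.52 ± 0.19 (0.0046), inx-3 at -1.48 ± 0.35 (0.0294) and inx-18 at -1.4 ± 0.34 (0.0313). The count of 7 lowered genes became 4 without M24 replicate 1 or M0 replicate 3. In all cells 12 innexins were lowered, against 13.7% of all genes. emb-9 lost its call without M24 replicate 1 or M0 replicate 1, 2 or 3 (highest value of the adjusted p 0.129). nid-1 lost its call without M24 replicate 1 or 2 or M0 replicate 1 or 3 (highest value of the adjusted p 0.0702). inx-3 lost its call without any 1 array but M24 replicate 3 (highest value of the adjusted p 0.0995). inx-18 lost its call without M24 replicate 1 or M0 replicate 1 or 3 (highest value of the adjusted p 0.105). mig-6 was not called on within-array ranks. emb-9 was not called as deposited, after median centring alone, on within-array ranks or with all 13 arrays normalized together. nid-1 and inx-18 were not called as deposited or after median centring alone. Lowered basement membrane genes numbered 3 as deposited, 2 after median centring and 4 on ranks. Over all basement membrane genes the median was -0.54 on ranks and -0.56 over all probe sets of a gene.

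Cuticle collagens, secreted by the epidermis, had 4 of 146 raised (2.74%) and 11 lowered (7.53%). dpy-14 had 98, 78.4 and 63.5 in M24, against 361.3, 342 and 400.3 in M0 (-2.22 ± 0.2, adjusted p = 0.00185), and sqt-3, which stands in the epidermis markers too, had 379.3, 276.2 and 671.7 in M24, against 1274, 1307 and 1407 in M0 (-1.69 ± 0.32, adjusted p = 0.015). col-119 (-1.81 ± 0.24) and col-66 (-1.6 ± 0.16) were lowered as well. The count of 4 raised genes became 1 without M24 replicate 2 or M0 replicate 1 or 3 and 2 without M24 replicate 1 or M0 replicate 2. The count of 11 lowered genes became 4 without M0 replicate 3, 5 without M24 replicate 1 and 7 without M0 replicate 1. Of the raised ones, col-76 had 422.2, 609.3 and 718.5 in M24, against 157.4, 285.4 and 244.7 in M0 (1.36 ± 0.29, adjusted p = 0.023), while all cells stood at -0.77 and the difference was called (2.03 ± 0.37). The others were col-137 (1.14 ± 0.15), col-138 (0.88 ± 0.19) and col-152 (0.82 ± 0.22). sqt-3 lost its call without M24 replicate 1 or M0 replicate 1, 2 or 3 (highest value of the adjusted p 0.0589). col-76 lost its call without M24 replicate 2 or M0 replicate 1 or 3 (highest value of the adjusted p 0.064). col-138 lost its call without any 1 array but M24 replicate 3 (highest value of the adjusted p 0.0935). col-152 lost its call without any 1 array (highest value of the adjusted p 0.113). sqt-3 and col-119 had no other probe set called. col-138 was not called after median centring alone. col-152 was not called with the filter on dim probe sets. The difference of col-76 was not called with scan day as a random block (adjusted p = 0.0776).

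Chaperone genes went both ways. Of 20 cytosolic heat shock genes 5 were raised (25%) and 5 lowered (25%), and in all cells 8 and 5, against 12.8% and 13.7% of all genes there. hsp-16.2, a small heat shock protein gene widely used as a stress reporter, had 5928, 5461 and 1385 in M24, against 420.4, 820.7 and 205.8 in M0 (3.1 ± 0.69, adjusted p = 0.0251), and hsp-16.41, of the same family, had 2913, 2516 and 1049.7 in M24, against 179.8, 423.1 and 102.4 in M0 (3.32 ± 0.58, adjusted p = 0.0125). hsp-1, the constitutive Hsp70 gene, had 4576, 4694 and 3036 in M24, against 324.5, 837.7 and 1048 in M0 (2.61 ± 0.44, adjusted p = 0.011). As with hsp-70, M24 replicate 3 gave the lowest M24 value of each. Falls were seen in hsp-12.1 (533.9, 215.1 and 1025 in M24, against 4267, 4284 and 3223 in M0, -2.99 ± 0.52, adjusted p = 0.0122), hsp-12.2 (-2.99 ± 0.52, adjusted p = 0.0117) and hsp-12.3 (-2.8 ± 0.62, adjusted p = 0.0255), small heat shock proteins that are not heat-inducible and whose similar sequences may share signal. hsb-1, which encodes a protein that binds and restrains the heat shock factor HSF-1, had 277.6, 298.8 and 280.3 in M24, against 1199, 1429.6 and 1019 in M0 (-2.08 ± 0.17, adjusted p = 0.00154). The count of 5 raised genes became 2 without M0 replicate 1 and 3 without M24 replicate 1 or 2. The count of 5 lowered genes became 1 without M0 replicate 2 and 3 without M24 replicate 1 or M0 replicate 1. None of these genes was called in the difference from all cells, against 1.04% of all genes higher and 0.952% lower in muscle. hsp-16.2 lost its call without M24 replicate 1 or 2 or M0 replicate 1 or 3 (highest value of the adjusted p 0.085). hsp-16.41 lost its call without M0 replicate 1 (highest value of the adjusted p 0.0507). hsp-12.1 and hsp-12.2 lost their calls without M0 replicate 2 (highest value of the adjusted p 0.052 and 0.0519). hsp-12.3 lost its call without M24 replicate 1 or M0 replicate 1 or 2 (highest value of the adjusted p 0.0945).

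Of 22 genes of the endoplasmic reticulum stress list 5 were raised (22.7%) and 1 lowered. cdc-48.2 and cdc-48.1, a pair of genes for the AAA ATPase that pulls ubiquitinated proteins towards the proteasome, had 800.4, 688.2 and 375.3 in M24, against 54.5, 52.7 and 131.2 in M0 (3.03 ± 0.43, adjusted p = 0.00657) and 1003, 1047 and 258 in M24, against 67.5, 92.7 and 138.2 in M0 (2.76 ± 0.57, adjusted p = 0.02). Being paralogs, they may share signal on the array. The count of 5 raised genes became 1 without M24 replicate 1, 2 without M24 replicate 2 or M0 replicate 1 or 2 and 8 without M24 replicate 3. hsp-3, a BiP chaperone gene, was at 1.81 ± 0.46 (adjusted p = 0.0368) and pdi-3, a protein disulfide isomerase gene, at 1.7 ± 0.33 (adjusted p = 0.0164), while dnj-20, a DnaJ gene, was at -0.95 ± 0.21 (adjusted p = 0.0248). cdc-48.1 and hsp-3 lost their calls without M24 replicate 1 or 2 or M0 replicate 1 or 2 (highest value of the adjusted p 0.0723 and 0.117). pdi-3 lost its call without M24 replicate 1 or M0 replicate 1, 2 or 3 (highest value of the adjusted p 0.0616). dnj-20 lost its call without M24 replicate 1 or M0 replicate 1 or 2 (highest value of the adjusted p 0.0884). cdc-48.2 and dnj-20 had no other probe set called. pdi-3 was not called after median centring alone. dnj-20 was not called as deposited, after median centring alone or on within-array ranks.

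Autophagy genes had 7 of 26 raised (26.9%) and 2 lowered (7.69%, near the background). epg-6, a WIPI family gene, had 677.9, 858.8 and 935.3 in M24, against 238.8, 113.9 and 285 in M0 (2.04 ± 0.35, adjusted p = 0.0115), and bec-1, the Beclin homolog, had 1228, 1215 and 820.1 in M24, against 347.9, 400.3 and 469.9 in M0 (1.41 ± 0.22, adjusted p = 0.00847). atg-7 (1.68 ± 0.39), atg-2 (1.07 ± 0.29), epg-2 (-1.45 ± 0.32) and epg-3 (-0.79 ± 0.16) had adjusted p-values of 0.0205 to 0.0474. The count of 7 raised genes became 2 without M24 replicate 1 or 2 or M0 replicate 1 and 3 without M0 replicate 2. Of 21 cell death and corpse clearance genes 4 were raised (19%) and 1 lowered. egl-1, which encodes the BH3-only protein that starts programmed cell death, had 1179.6, 1633 and 1312 in M24, against 193.3, 198.9 and 163 in M0 (2.88 ± 0.18, adjusted p = 0.000756). It rose in all cells too (1.19), and the difference was called (1.63 ± 0.3, adjusted p = 0.0167). csp-3, a caspase-related gene, had 115.2, 116.1 and 109.1 in M24, against 23.3, 25.4 and 28.6 in M0 (2.14 ± 0.15, adjusted p = 0.00103). ced-4, the Apaf-1 homolog, was at 1.14 ± 0.21 (adjusted p = 0.0148), psr-1 at 1.59 ± 0.37 (0.0294), and ttr-52, which bridges dying cells and their engulfers, at -1.32 ± 0.23 (0.0114). atg-7, atg-2 and psr-1 lost their calls without any 1 array but M24 replicate 3 (highest value of the adjusted p 0.0995, 0.123 and 0.102). epg-2 lost its call without M0 replicate 1, 2 or 3 (highest value of the adjusted p 0.0807). epg-3 lost its call without any 1 array but M0 replicate 2 (highest value of the adjusted p 0.0784). ced-4 lost its call without M24 replicate 1 or M0 replicate 1 or 3 (highest value of the adjusted p 0.0603). bec-1 and csp-3 had no other probe set called. Raised autophagy genes numbered 3 after median centring or on ranks and 4 with 13 arrays normalized together or with an intensity trend. Lowered autophagy genes numbered 0 without M0 replicate 1 or 3. Raised apoptosis and corpse clearance genes numbered 2 without M24 replicate 1 or M0 replicate 1 or 3. Lowered apoptosis and corpse clearance genes numbered 3 with array weights. atg-7 and psr-1 were not called after median centring alone. atg-2 was not called after median centring alone, on within-array ranks, with all 13 arrays normalized together or with an intensity trend. epg-2 was not called as deposited or after median centring alone. epg-3 was not called with array weights. The difference of egl-1 was not called with scan day as a random block (adjusted p = 0.0893).

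Of 20 genes of the vacuolar proton pump 3 were raised (15%, against 7.31% of all genes), vha-18 (2.55 ± 0.47, adjusted p = 0.014), spe-5 (1.31 ± 0.34, 0.0414) and vha-19 (0.84 ± 0.2, 0.0324). Of 27 lysosomal proteases 1 was raised (3.7%) and 1 lowered (3.7%), both below the shares of all genes. cpr-1, a cathepsin B gene of the intestine, had 476.7, 438.9 and 263.2 in M24, against 51.8, 50.6 and 44.2 in M0 (2.96 ± 0.25, adjusted p = 0.00159), and cpr-4, another cathepsin B gene, had 64.3, 59.8 and 54.2 in M24, against 143.3, 199.4 and 145.8 in M0 (-1.44 ± 0.19, adjusted p = 0.00465). vha-18 lost its call without M24 replicate 1 or M0 replicate 2 (highest value of the adjusted p 0.0568). spe-5 lost its call without any 1 array but M24 replicate 3 (highest value of the adjusted p 0.122). vha-19 lost its call without M24 replicate 1 or 2 or M0 replicate 1 or 3 (highest value of the adjusted p 0.119). Raised vacuolar ATPase genes numbered 5 as deposited, 0 without M24 replicate 1 and 1 without M24 replicate 2 or M0 replicate 2 or 3. Raised lysosomal proteases numbered 4 with array weights or without M24 replicate 3. spe-5 was not called after median centring alone. vha-19 was not called on within-array ranks or with an intensity trend.

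In energy metabolism the oxidative phosphorylation list had 6 of 35 lowered (17.1%) and 0 raised, with a median of -0.31. The cytochrome c oxidase subunit genes cox-6B and cox-5B had 867.4, 614.7 and 1021 in M24, against 2940.4, 2769 and 2273 in M0 (-1.7 ± 0.23, adjusted p = 0.00533) and 1865, 1122 and 1945 in M24, against 4974, 4303 and 3835 in M0 (-1.45 ± 0.25, adjusted p = 0.0116). A further subunit gene, cox-6C, was at -1.17 ± 0.28 (adjusted p = 0.0323) and sdha-1, of succinate dehydrogenase, at -0.97 ± 0.19 (adjusted p = 0.0187). In all cells the 4 genes were at -1.79, -1.47, -1.19 and -0.98. The count of 6 lowered genes became 2 without M24 replicate 1 or M0 replicate 1 or 2. In the TCA cycle list 1 of 25 was raised (4%) and 3 were lowered (12%), against 7.31% and 7.68% of all genes. icl-1, the isocitrate lyase and malate synthase gene of the glyoxylate bypass by which worms turn fat into sugar, had 704.7, 265.7 and 1204 in M24, against 2369, 3047 and 4769.8 in M0 (-2.42 ± 0.55, adjusted p = 0.0268), and the fall differed from all cells (-2.01 ± 0.44). idhg-2 and idha-1, isocitrate dehydrogenase subunit genes, were at -2.84 ± 0.39 (adjusted p = 0.00553) and -1.34 ± 0.15 (0.00328), and dld-1, the dihydrolipoyl dehydrogenase gene, at 0.96 ± 0.2 (0.0221). cox-6C lost its call without any 1 array but M24 replicate 3 (highest value of the adjusted p 0.0833). sdha-1 lost its call without M24 replicate 1 or M0 replicate 1 or 2 (highest value of the adjusted p 0.0713). icl-1 lost its call without M24 replicate 1 or M0 replicate 1, 2 or 3 (highest value of the adjusted p 0.0877). dld-1 lost its call without M24 replicate 1 or 2 or M0 replicate 1 (highest value of the adjusted p 0.0865). sdha-1 and idha-1 had no other probe set called. Lowered oxidative phosphorylation genes numbered 3 as deposited and 1 on ranks. Over all oxidative phosphorylation genes the median was -0.1 as deposited, -0.15 after median centring, -0.19 on ranks, -0.18 with array weights and -0.52 without M24 replicate 1. Raised TCA cycle genes numbered 5 with array weights and 7 without M24 replicate 3. cox-5B and cox-6C were not called on within-array ranks. sdha-1 was not called as deposited, after median centring alone or on within-array ranks. The difference of icl-1 was not called with scan day as a random block (adjusted p = 0.202).

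In the list of glycolysis and glycogen 2 of 25 genes were raised (8%, near the background) and 5 lowered (20%). pyk-2, a pyruvate kinase gene, had 73.9, 127 and 86.7 in M24, against 505.4, 396.1 and 478.2 in M0 (-2.29 ± 0.23, adjusted p = 0.00249), whereas all cells stood at 0.26, and the difference was called (-2.23 ± 0.4, adjusted p = 0.0159). hxk-1, a hexokinase gene, had 394.4, 488.8 and 483.2 in M24, against 164.7, 130.9 and 180.2 in M0 (1.53 ± 0.19, adjusted p = 0.00395), and ldh-1, the lactate dehydrogenase gene, was at 0.85 ± 0.17 (adjusted p = 0.0174). The triose phosphate isomerase gene tpi-1 (-1.6 ± 0.25, adjusted p = 0.00806), the phosphofructokinase gene pfk-1.1 (-1.45 ± 0.19, 0.00459) and the phosphoenolpyruvate carboxykinase gene pck-1 (-1.36 ± 0.35, 0.0392) were lowered. The count of 5 lowered genes became 3 without M24 replicate 1 or M0 replicate 1, 2 or 3. Lipid genes had 7 of 52 raised (13.5%) and 3 lowered (5.77%). The fatty acid desaturase gene fat-2 (2.35 ± 0.55, adjusted p = 0.0286) and the elongase gene elo-1 (1.81 ± 0.4, 0.0256), both needed for polyunsaturated fatty acids, were raised, as was lbp-9 (1.56 ± 0.19, 0.00406), which contrasts with lbp-3 and with lbp-7 (-1.45 ± 0.27, 0.0158), all genes of fatty acid binding proteins. The count of 7 raised genes became 2 without M24 replicate 1 or M0 replicate 1 or 3, 3 without M0 replicate 2 and 4 without M24 replicate 2. The count of 3 lowered genes became 1 without M24 replicate 1. The acyl-CoA dehydrogenase genes acdh-4 and acdh-5 were at 1.26 ± 0.28 (0.0252) and -0.86 ± 0.15 (0.0127). ldh-1 lost its call without M24 replicate 1 or M0 replicate 1 or 2 (highest value of the adjusted p 0.0736). pck-1 and acdh-4 lost their calls without any 1 array but M24 replicate 3 (highest value of the adjusted p 0.113 and 0.0892). fat-2 lost its call without M24 replicate 1 or 2 or M0 replicate 1 or 3 (highest value of the adjusted p 0.0904). elo-1 lost its call without M24 replicate 1 or M0 replicate 1, 2 or 3 (highest value of the adjusted p 0.082). lbp-7 lost its call without M24 replicate 1 or M0 replicate 3 (highest value of the adjusted p 0.0604). acdh-5 lost its call without M24 replicate 1 (highest value of the adjusted p 0.0539). tpi-1 and pfk-1.1 had no other probe set called. Raised glycolysis and glycogen genes numbered 4 without M24 replicate 3. Lowered glycolysis and glycogen genes numbered 1 as deposited or after median centring and 3 on ranks. Lowered lipid metabolism genes numbered 5 with array weights. ldh-1 was not called after median centring alone or on within-array ranks. tpi-1 and pfk-1.1 were not called as deposited or after median centring alone. pck-1 was not called as deposited, after median centring alone or on within-array ranks. elo-1 was not called after median centring alone. The difference of pyk-2 was not called with scan day as a random block (adjusted p = 0.052).

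Glutathione S-transferases, which attach glutathione to reactive compounds, had 6 of 45 genes raised (13.3%) and 3 lowered (6.67%) in M24. In all cells 3 were raised and 15 lowered, against 12.8% and 13.7% of all genes there. The difference from all cells was called higher in muscle for 6 of 45 and lower for 1, against 1.04% and 0.952% of all genes. gst-39 had 5124, 6481 and 6033 in M24, against 1336, 928.6 and 1099 in M0 (2.4 ± 0.19, adjusted p = 0.00138), and gst-5 had 5149.5, 4801 and 5230.1 in M24, against 740.5, 735.3 and 2238 in M0 (2.24 ± 0.43, adjusted p = 0.0159), where M0 replicate 3 was well above the other M0 arrays. gst-1 had 5104, 4954 and 4220.4 in M24, against 1516, 1103 and 1354 in M0 (1.85 ± 0.18, adjusted p = 0.0022). In all cells gst-31, gst-39, gst-5 and gst-1 were at -0.63, -0.83, -0.39 and 0.89, with gst-39 called lowered and gst-1 called raised there. The differences of gst-31 (4.37 ± 0.47), gst-39 (3.17 ± 0.32) and gst-5 (2.55 ± 0.59) were called and that of gst-1 (0.85 ± 0.4) was not. The count of 6 raised genes became 3 without M24 replicate 1 or M0 replicate 1. gst-7 had 798.7, 850.9 and 1283 in M24, against 3113, 2266 and 2516 in M0 (-1.45 ± 0.23, adjusted p = 0.0097), gst-22 was at -1.61 ± 0.27 (adjusted p = 0.0106, difference -1.94 ± 0.34) and gst-20 at -0.92 ± 0.25 (0.0433). gst-5 lost its call without M24 replicate 1 or M0 replicate 1 or 2 (highest value of the adjusted p 0.0573). gst-20 lost its call without any 1 array but M24 replicate 1 (highest value of the adjusted p 0.123). gst-20 was not called as deposited, after median centring alone or with array weights. Lowered glutathione S-transferases numbered 5 on ranks or with array weights and 6 without M0 replicate 2. The differences of gst-5 and gst-22 were not called with scan day as a random block (adjusted p = 0.13 and 0.0642). That of gst-5 was also lost without any 1 of 11 of the 13 arrays.

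Among other detoxification families, glucuronosyltransferases had 4 of 64 raised (6.25%) and 6 lowered (9.38%), near the 7.31% and 7.68% of all genes. Among them were ugt-26 with 158.6, 265.9 and 330.2 in M24, against 1636, 882.2 and 1294 in M0 (-2.36 ± 0.34, adjusted p = 0.00651), ugt-39 (1.61 ± 0.27), ugt-52 (1.12 ± 0.25), ugt-18 (0.93 ± 0.15), ugt-13 (-1.64 ± 0.2), ugt-60 (-1.17 ± 0.24) and ugt-42 (-1.07 ± 0.23). Cytochrome P450 genes had 4 of 73 raised (5.48%) and 1 lowered (1.37%), both below the shares of all genes. The count of 4 raised genes became 1 without M24 replicate 1 or M0 replicate 1 or 3 and 2 without M24 replicate 2 or M0 replicate 2. The count of 1 lowered gene became 0 without M24 replicate 1 or 2 or M0 replicate 3 and 5 without M24 replicate 3. cyp-33C8 had 751, 638.9 and 728.2 in M24, against 156, 107.6 and 170.0 in M0 (2.31 ± 0.21, adjusted p = 0.00185), while cyp-33C7 (1.2 ± 0.32), cyp-13B2 (0.93 ± 0.2), cyp-13A2 (0.77 ± 0.16) and cyp-33E2 (-0.97 ± 0.21) moved less. Antioxidant genes had 2 of 20 raised (10%, against 7.31% of all genes) and 0 lowered. prdx-2, a peroxiredoxin gene, had 2259, 2324 and 2354 in M24, against 1279.5, 956.2 and 1108 in M0 (1.06 ± 0.16, adjusted p = 0.00806), where all cells stood at -0.54 and the difference was called (1.48 ± 0.34), and sod-4, an extracellular superoxide dismutase gene, was at 1.13 ± 0.22 (adjusted p = 0.016). ugt-52 and cyp-13B2 lost their calls without M24 replicate 1 or 2 or M0 replicate 1 or 3 (highest value of the adjusted p 0.0682 and 0.0935). ugt-60 and cyp-33E2 lost their calls without M24 replicate 1 or 2 or M0 replicate 3 (highest value of the adjusted p 0.0796 and 0.0717). ugt-42 lost its call without M24 replicate 1 or 2 or M0 replicate 1 or 2 (highest value of the adjusted p 0.0868). cyp-33C7 lost its call without any 1 array but M24 replicate 3 (highest value of the adjusted p 0.119). cyp-13A2 lost its call without any 1 array but M24 replicate 2 (highest value of the adjusted p 0.0875). sod-4 lost its call without M24 replicate 1 or M0 replicate 1, 2 or 3 (highest value of the adjusted p 0.0613). Lowered UDP-glucuronosyltransferases numbered 2 without M24 replicate 1 or 2 and 3 without M0 replicate 2 or 3. Raised cytochrome P450 genes numbered 2 as deposited or after median centring. Lowered cytochrome P450 genes numbered 3 with array weights. Raised antioxidant genes numbered 4 as deposited or with array weights and 0 on ranks. ugt-42 was not called as deposited. cyp-33C7 was not called as deposited, after median centring alone or with all 13 arrays normalized together. cyp-13A2 was not called as deposited or after median centring alone. prdx-2 and sod-4 were not called on within-array ranks. The difference of prdx-2 was not called with scan day as a random block (adjusted p = 0.164). It was also lost without any 1 of 9 of the 13 arrays.

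**Figure D4:**
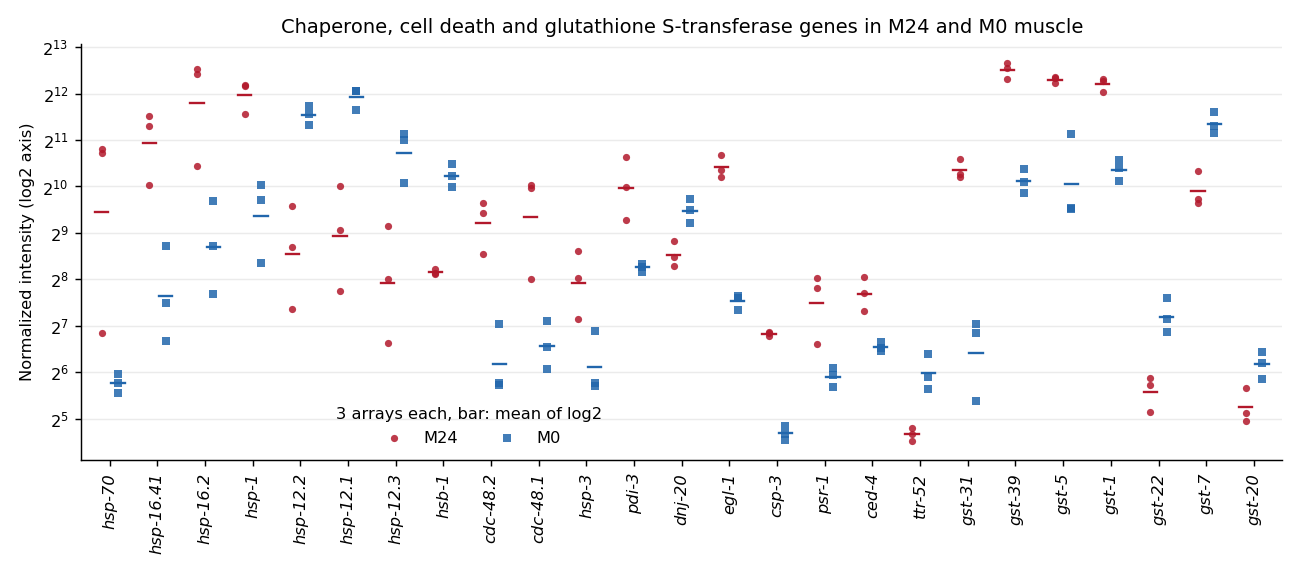
Normalized intensity (log2 axis) of 25 chaperone, endoplasmic reticulum stress, cell death and glutathione S-transferase genes on the 3 M24 arrays (circles) and the 3 M0 arrays (squares), with bars at the mean of the log2 values. The heat-inducible genes hsp-70, hsp-16.41 and hsp-16.2 have 1 low M24 point each, M24 replicate 3, while hsb-1 and gst-39 have tight groups.

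Among protein synthesis genes, 1 of 74 cytosolic ribosomal protein genes was called, rpl-41.1 (-1.11 ± 0.27, adjusted p = 0.0336), and the median was -0.01. Ribosome biogenesis had 10 of 29 raised (34.5%) and 0 lowered, with a median of 0.63 in muscle and 1.19 in all cells. lpd-6 was at 1.84 ± 0.28 (adjusted p = 0.00769). dao-5, the nucleolar Nopp140 homolog, had 858.8, 673.4 and 1307 in M24, against 243.8, 295.8 and 393.2 in M0 (1.58 ± 0.29, adjusted p = 0.0145), and rrp-1 (1.53 ± 0.3) and rbd-1 (1.36 ± 0.37) were raised with adjusted p-values of 0.017 and 0.0475. The count of 10 raised genes became 2 without M0 replicate 2, 3 without M24 replicate 1, 4 without M0 replicate 1 and 6 without M0 replicate 3. Mitochondrial ribosomal protein genes had 2 of 59 raised and 8 lowered (13.6%), with a median of -0.25, which became 0.09 in the values as deposited and 0.04 with each array centred on its median. The median in all cells was 0.33. The count of 8 lowered genes became 2 without M0 replicate 1 and 3 without M24 replicate 1 or M0 replicate 2. mrpl-24 was raised (1.66 ± 0.21), as was mrps-22 (1.18 ± 0.3), whereas mrps-23 (-1.39 ± 0.37), mrps-28 (-1.33 ± 0.25), mrpl-41 (-1.08 ± 0.21) and mrpl-55 (-1.06 ± 0.2) were lowered. rpl-41.1 and mrps-22 lost their calls without any 1 array but M24 replicate 3 (highest value of the adjusted p 0.112 and 0.12). dao-5 and rrp-1 lost their calls without M24 replicate 1 or M0 replicate 1 or 2 (highest value of the adjusted p 0.0557 and 0.0676). rbd-1 and mrps-23 lost their calls without M24 replicate 1 or 2 or M0 replicate 1 or 2 (highest value of the adjusted p 0.14 and 0.13). mrps-28 lost its call without M24 replicate 1 (highest value of the adjusted p 0.0618). mrpl-41 lost its call without M0 replicate 1 or 2 (highest value of the adjusted p 0.0608). mrpl-55 lost its call without M0 replicate 1 (highest value of the adjusted p 0.0548). Raised ribosome biogenesis genes numbered 5 on ranks. Raised mitochondrial ribosome genes numbered 7 as deposited and 4 with array weights. Lowered mitochondrial ribosome genes numbered 1 as deposited or after median centring, 2 on ranks and 4 with array weights. rpl-41.1 was not called on within-array ranks. rbd-1 and mrps-22 were not called after median centring alone. mrps-23 and mrpl-55 were not called as deposited, after median centring alone, on within-array ranks or with array weights. mrpl-41 was not called as deposited or after median centring alone.

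DNA replication genes had 5 of 36 raised (13.9%) and 0 lowered, with a median of 0.45 in muscle and 0.45 in all cells. rpa-2, a subunit gene of the single-strand binding protein RPA, had 952.9, 827.1 and 426.6 in M24, against 121, 60.1 and 165.3 in M0 (2.71 ± 0.45, adjusted p = 0.0102). The polymerase delta gene pold-1 (1.19 ± 0.21), the nuclease gene crn-1 (1.08 ± 0.19) and the licensing factor gene cdt-1 (1.07 ± 0.17) were raised as well. The count of 5 raised genes became 3 without M24 replicate 1. Mitosis and cell cycle genes had 2 of 63 raised (3.17%) and 2 lowered (3.17%). klp-7, a microtubule-depolymerising kinesin gene, was at 1.64 ± 0.39 (adjusted p = 0.0305) and emb-30, of the anaphase-promoting complex, at 0.79 ± 0.14 (0.013). cyb-1, a mitotic cyclin gene, had 62.9, 57.9 and 66.5 in M24, against 145.8, 97.5 and 126.7 in M0 (-0.96 ± 0.19, adjusted p = 0.0179), and cki-1, the Cip/Kip inhibitor gene that holds cells out of the cycle, had 702, 738.7 and 876 in M24, against 1735, 1463 and 1204 in M0 (-0.92 ± 0.19, adjusted p = 0.021). pold-1 lost its call without M24 replicate 1 (highest value of the adjusted p 0.0544). klp-7 lost its call without any 1 array but M24 replicate 3 (highest value of the adjusted p 0.104). emb-30 lost its call without M24 replicate 1 or 2 or M0 replicate 3 (highest value of the adjusted p 0.0537). cyb-1 lost its call without M24 replicate 1 or 2 or M0 replicate 1 or 3 (highest value of the adjusted p 0.0693). cki-1 lost its call without M24 replicate 1 or 2 or M0 replicate 1 or 2 (highest value of the adjusted p 0.0831). emb-30, cyb-1 and cki-1 had no other probe set called. Raised DNA replication genes numbered 9 as deposited and 8 after median centring. Raised mitosis and cell cycle genes numbered 5 as deposited, 8 with array weights, 0 without M24 replicate 1 or 2 or M0 replicate 3 and 9 without M24 replicate 3. Lowered mitosis and cell cycle genes numbered 0 as deposited or without M24 replicate 1 or 2 or M0 replicate 1, 7 with array weights and 4 without M24 replicate 3. klp-7 was not called after median centring alone. emb-30 was not called after median centring alone, on within-array ranks, with all 13 arrays normalized together or with array weights. cyb-1 was not called as deposited. cki-1 was not called as deposited, after median centring alone or on within-array ranks.

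Of 33 histone genes 3 were raised (9.09%) and 2 lowered (6.06%), near the 7.31% and 7.68% of all genes. The linker histone gene hil-7 had 2839, 2077 and 3864 in M24, against 8025, 7916 and 9161 in M0 (-1.56 ± 0.24, adjusted p = 0.00847). Of the genes for the replacement histone H3.3, his-72 had 4187, 3368 and 4106 in M24, against 1859.8, 2675 and 1897 in M0 (0.87 ± 0.2, adjusted p = 0.0279) and his-71 had 186.3, 146.2 and 100.7 in M24, against 391.5, 308 and 373.6 in M0 (-1.35 ± 0.25, adjusted p = 0.0146), opposite directions for a pair whose proteins are nearly alike. his-41 (1.31 ± 0.33, adjusted p = 0.0352) and his-35 (1.09 ± 0.3, 0.0479) were raised. Histone genes have many near-identical copies, and their probe sets may share signal. his-72 lost its call without M24 replicate 1 or M0 replicate 1 or 3 (highest value of the adjusted p 0.102). his-71 lost its call without M0 replicate 1 or 3 (highest value of the adjusted p 0.0575). his-41 lost its call without any 1 array but M24 replicate 3 (highest value of the adjusted p 0.112). his-35 lost its call without any 1 array but M0 replicate 2 (highest value of the adjusted p 0.136). his-72 had no other probe set called. Raised histones numbered 0 on ranks or without M24 replicate 1 or M0 replicate 1 or 3 and 1 without M24 replicate 2. Lowered histones numbered 5 with array weights and 6 without M24 replicate 3. his-72 was not called on within-array ranks. his-71 was not called as deposited or after median centring alone. his-41 was not called as deposited, after median centring alone or on within-array ranks. his-35 was not called on within-array ranks or with all 13 arrays normalized together.

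Markers of other cells were read as whole lists. The sorting gate had been set to leave out autofluorescent cells, and no marker is at 0, since the deposited summary gives each probe set a positive value. The summed intensity of 37 germline and maternal genes was 5940 to 7217 in M24 and 4211 to 5510 in M0 (6932 to 8867 in R24, 4319 to 5876 in R0), and 6 of 37 were raised and 1 lowered. pos-1, a maternal RNA-binding protein gene, had 483.9, 824.2 and 538.7 in M24, against 179.2, 168.3 and 129.9 in M0 (1.93 ± 0.25, adjusted p = 0.00459), and glh-1, a Vasa-type P granule helicase gene, had 154.5, 122.1 and 94.9 in M24, against 31.6, 35 and 37 in M0 (1.82 ± 0.21, adjusted p = 0.00343). mex-3, which encodes a KH domain RNA-binding protein, was at 1.3 ± 0.25 (adjusted p = 0.016), glh-4 at 1.63 ± 0.36 (0.0241) and the RNA helicase gene cgh-1 at -0.92 ± 0.22 (0.0309). Of 40 neuron markers 6 were lowered (15%) and 1 raised. The motor neuron factor unc-3 had 62.7, 59.4 and 67.6 in M24, against 220.2, 248.7 and 178.4 in M0 (-1.76 ± 0.18, adjusted p = 0.0023) and the homeobox gene unc-42 was at -1.72 ± 0.16 (adjusted p = 0.00185). The synaptic vesicle gene rab-3 (-1.4 ± 0.18) and the active zone gene unc-10 (-0.96 ± 0.15) were lowered as well, and cho-1, the choline transporter gene, was raised (1.1 ± 0.19). In all cells 16 of the 40 were lowered, against 13.7% of all genes. glh-4 lost its call without M24 replicate 1 or 2 or M0 replicate 1 or 2 (highest value of the adjusted p 0.0872). cgh-1 lost its call without M24 replicate 1 or 2 or M0 replicate 2 or 3 (highest value of the adjusted p 0.11). cho-1 lost its call without M24 replicate 1 (highest value of the adjusted p 0.0556). cgh-1, unc-3, rab-3 and unc-10 had no other probe set called. Lowered germline and maternal genes numbered 3 without M24 replicate 3. Raised neuron markers numbered 3 as deposited and 4 with array weights. Lowered neuron markers numbered 3 as deposited. cgh-1 was not called as deposited, after median centring alone, on within-array ranks or with an intensity trend. unc-10 was not called as deposited.

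Intestine markers summed to 1632 to 1985 in M24 and 1162 to 1653 in M0 over 19 genes, with 2 raised (10.5%), cpr-1 (2.96 ± 0.25) and the gut esterase gene ges-1 (0.85 ± 0.15, adjusted p = 0.013). Epidermis markers, 28 genes, summed to 3012 to 5479 in M24 and 4952 to 6122 in M0, with 2 lowered (7.14%, near the background), sqt-3 (-1.69 ± 0.32) and the junction gene ajm-1 (-1.03 ± 0.19, adjusted p = 0.0145). Pharynx markers, 15 genes, summed to 1466 to 2159 in M24 and 1617 to 1829 in M0, with 2 raised (13.3%) and 3 lowered (20%). peb-1, a DNA-binding factor gene of the pharynx, had 291.1, 616.3 and 404.5 in M24, against 150.4, 129.4 and 118.9 in M0 (1.66 ± 0.28, adjusted p = 0.0112), while all cells stood at -1.54, and the difference was called (3.11 ± 0.47). eya-1, the Eyes absent homolog, had 47.7, 56.7 and 43.4 in M24, against 309.7, 242.5 and 297.5 in M0 (-2.52 ± 0.18, adjusted p = 0.00104), and phat-3 (1.07 ± 0.14), phat-1 (-1.06 ± 0.15) and hlh-6 (-1.08 ± 0.21) were called. Of 3 coelomocyte markers, which summed to 160 to 270 in M24 and 319 to 432 in M0, lgc-26 was lowered (-1.1 ± 0.29, adjusted p = 0.0415). The part of these cells in the changes above was not tested. sqt-3 lost its call without M24 replicate 1 or M0 replicate 1, 2 or 3 (highest value of the adjusted p 0.0589). ajm-1 lost its call without M24 replicate 1 or M0 replicate 1 or 3 (highest value of the adjusted p 0.0648). hlh-6 lost its call without M24 replicate 1 or 2 (highest value of the adjusted p 0.0595). lgc-26 lost its call without any 1 array but M24 replicate 3 (highest value of the adjusted p 0.121). sqt-3, ajm-1 and peb-1 had no other probe set called. Lowered epidermis markers numbered 6 with array weights, 0 without M24 replicate 1 or M0 replicate 1 or 3 and 5 without M24 replicate 3. ges-1 was not called after median centring alone. ajm-1 was not called as deposited or after median centring alone. phat-1 was not called as deposited. lgc-26 was not called as deposited or on within-array ranks.

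Nuclear hormone receptors had 9 of 259 raised (3.47%) and 17 lowered (6.56%). The count of 9 raised genes became 4 without M24 replicate 1 or M0 replicate 1 or 3. The count of 17 lowered genes became 5 without M24 replicate 1, 7 without M0 replicate 3 and 11 without M0 replicate 1. nhr-59 had 31.7, 41.4 and 26 in M24, against 261.6, 158.8 and 195.7 in M0 (-2.63 ± 0.25, adjusted p = 0.0022), and nhr-112 had 53.9, 62.1 and 76.1 in M24, against 15.9, 14 and 17.1 in M0 (2.02 ± 0.18, adjusted p = 0.00185). nhr-232 (1.76 ± 0.2), nhr-213 (1.36 ± 0.27) and nhr-102 (1.26 ± 0.33) were raised, and nhr-18 (-1.61 ± 0.37), nhr-58 (-1.5 ± 0.32) and nhr-144 (-1.35 ± 0.19) lowered. Of these nhr-213 differed from all cells, where it was lowered (-0.98, difference 2.02 ± 0.44). Chemoreceptors, mostly expressed in sensory neurons, had 30 of 1275 raised (2.35%) and 48 lowered (3.76%). The count of 30 raised genes became 11 without M0 replicate 3, 12 without M24 replicate 1 or M0 replicate 1 and 14 without M0 replicate 2. The count of 48 lowered genes became 12 without M24 replicate 1, 25 without M0 replicate 3, 27 without M24 replicate 2, 30 without M0 replicate 2 and 78 without M24 replicate 3. Besides str-148, srh-184 was at -3.33 ± 0.21 (adjusted p = 0.000756), and sri-19 had 172.2, 115.2 and 194.7 in M24, against 769.9, 541.3 and 382.6 in M0 (-1.79 ± 0.31, adjusted p = 0.0119), while all cells stood at 0.73 (difference -2.25 ± 0.37). srw-61 was lowered (-1.79 ± 0.36), and srt-42 (3.07 ± 0.85), srr-4 (2.53 ± 0.51), srw-85 (1.83 ± 0.23) and srt-30 (1.57 ± 0.15) were raised. The insulin pathway had 1 of 34 raised (2.94%) and 2 lowered (5.88%), both below the shares of all genes. The raised gene was aap-1, the regulatory subunit gene of phosphoinositide 3-kinase (2.06 ± 0.5, adjusted p = 0.0326). The lowered ones were the kinase gene akt-1 with 159.9, 313.5 and 193.3 in M24, against 1031, 585.8 and 854.6 in M0 (-1.91 ± 0.31, adjusted p = 0.0102) and ist-1 (-0.99 ± 0.21, 0.023). nhr-213 lost its call without M0 replicate 1 or 2 (highest value of the adjusted p 0.0613). nhr-102 lost its call without any 1 array but M0 replicate 2 (highest value of the adjusted p 0.102). nhr-18 and nhr-58 lost their calls without M24 replicate 1 or M0 replicate 1 or 3 (highest value of the adjusted p 0.0827 and 0.0809). srw-61 lost its call without M24 replicate 1 or M0 replicate 1, 2 or 3 (highest value of the adjusted p 0.0727). srt-42 and aap-1 lost their calls without any 1 array but M24 replicate 3 (highest value of the adjusted p 0.146 and 0.106). ist-1 lost its call without M24 replicate 1 or 2 or M0 replicate 3 (highest value of the adjusted p 0.0757). nhr-59, nhr-112, akt-1 and ist-1 had no other probe set called. Lowered nuclear hormone receptors numbered 10 as deposited and 31 with array weights. Raised chemoreceptors numbered 50 on ranks. Lowered chemoreceptors numbered 106 on ranks and 73 with array weights. nhr-102 was not called on within-array ranks or with all 13 arrays normalized together. nhr-58 and akt-1 were not called as deposited or after median centring alone. srt-42 was not called as deposited, after median centring alone or with all 13 arrays normalized together. aap-1 was not called after median centring alone. The differences of nhr-213 and sri-19 were not called with scan day as a random block (adjusted p = 0.226 and 0.0629). That of nhr-213 was also lost without any 1 of 10 of the 13 arrays.

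**Figure D5:**
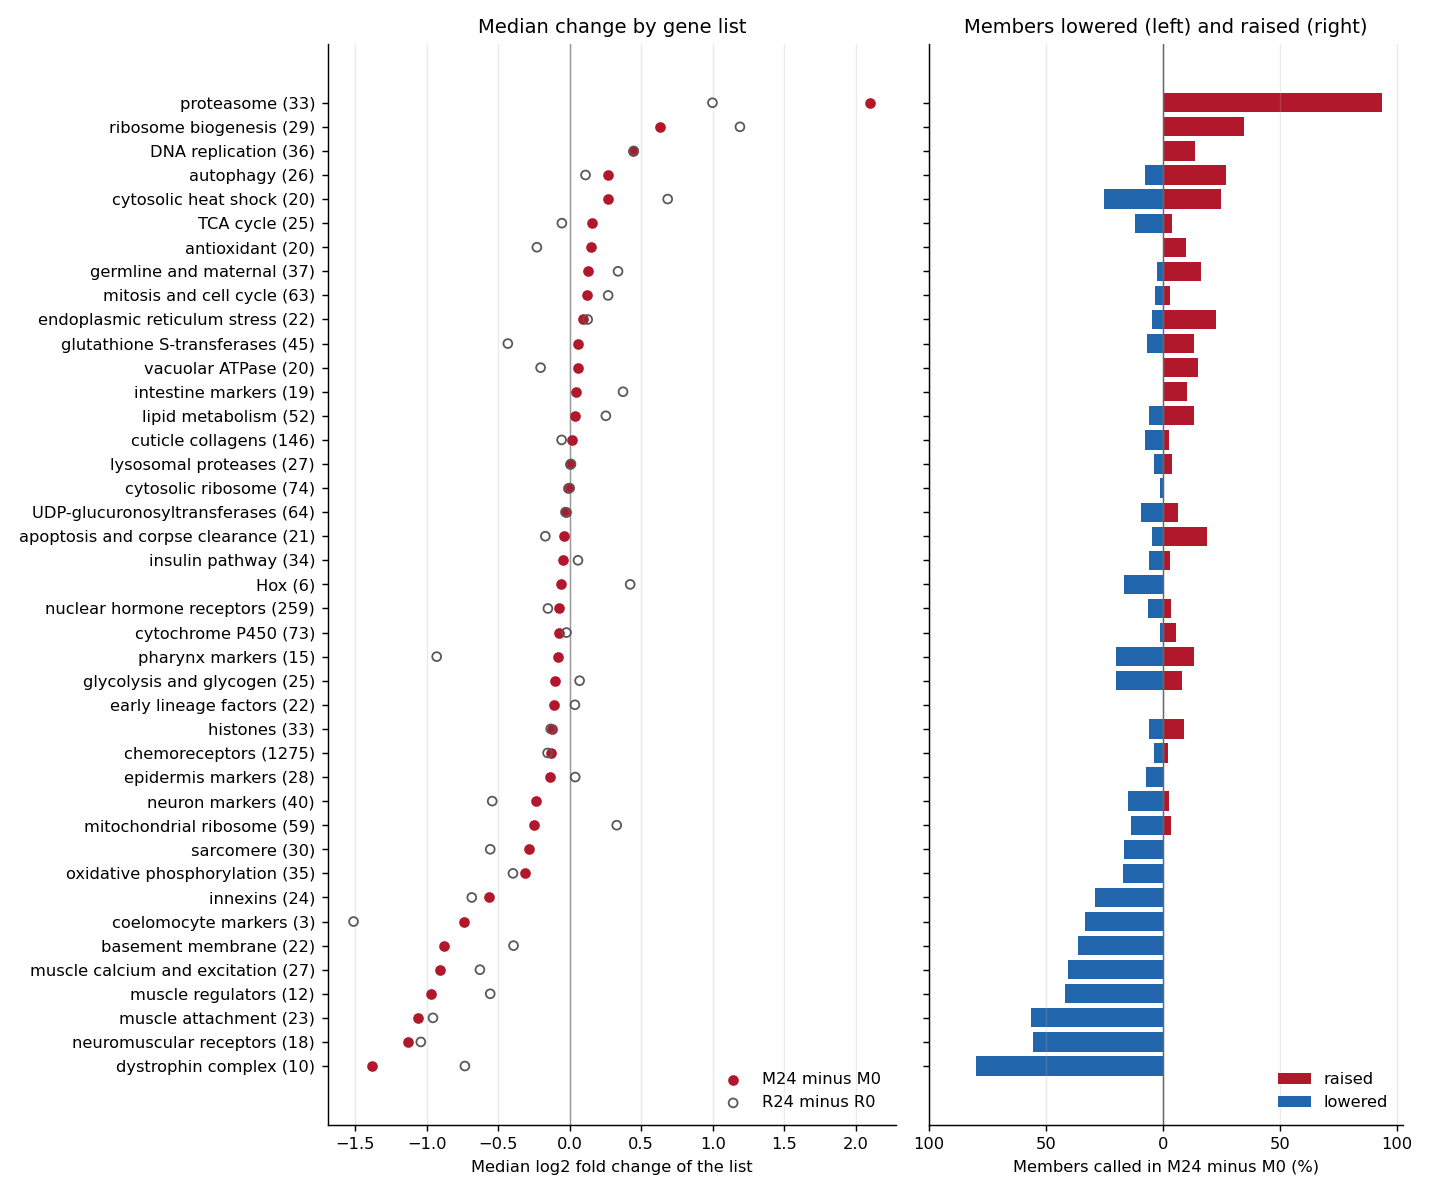
Left, median log2 fold change of 41 gene lists in muscle (filled, M24 minus M0) and in all cells (open, R24 minus R0), with the number of measured genes in brackets. Right, the percentage of each list's genes called lowered (blue) and raised (red) in M24. The proteasome stands at the top with a median of 2.1 in muscle and the dystrophin complex at the bottom with -1.38.

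Few genes were called in the difference of the 2 changes, and the numbers depended on single arrays and on scan day. Over all probe sets 211 were called higher in muscle (0.936%) and 224 lower (0.993%), and leaving out 1 of the 13 arrays gave 92 higher without R24 replicate 2 to 420 without M24 replicate 3, and 114 lower without R0 replicate 3 to 302 without R24 replicate 1. Y39B6A.1 had 147.6, 245.4 and 557.3 in M24, against 47.6, 39.2 and 70.5 in M0 (2.42 ± 0.48, adjusted p = 0.0183), while R24 cells had 44.5, 31.4, 69.5 and 52.9 and R0 cells 226.2, 50.8 and 211.8, and the difference was 3.95 ± 0.69 (adjusted p = 0.0144). kqt-2, a KCNQ potassium channel gene, had 106.1, 188.3 and 104.8 in M24, against 23.6, 36 and 34.4 in M0 (2.05 ± 0.29, adjusted p = 0.00627), while R24 cells had 90.6, 52.6, 60.7 and 77.7 and R0 cells 131.8, 387.4 and 138.6 (difference 3.4 ± 0.55). Both were raised in M24 and called lowered in R24 minus R0 (adjusted p = 0.0476 for Y39B6A.1 and 0.0154 for kqt-2), though for Y39B6A.1 the values of R0 replicate 2 and of R24 overlapped. For gst-31 the R24 cells had 1194, 721.9, 887.5 and 474 and the R0 cells 1244, 1171 and 1181, and M0 muscle, at 41.6 to 132, was the low group of the 4. gst-39 had 5702, 3779.5, 3315 and 4439.7 in R24 and 7883, 7247 and 7369 in R0. col-97, a cuticle collagen gene, and F52A8.3 were lowered in muscle and, with a larger change, in all cells. col-97 had 54.5, 38.6 and 71.4 in M24, against 134.3, 112.3 and 159.2 in M0, while R24 cells had 69.2, 54.9, 53.4 and 43.2 and R0 cells 1389, 959.9 and 1445 (difference 3.18 ± 0.42), and F52A8.3 changed by -1.13 ± 0.29 in muscle and by -4.52 in all cells. Y39B6A.1 lost its call without M0 replicate 1 or 2 (highest value of the adjusted p 0.0651). col-97 lost its call without M24 replicate 1 or M0 replicate 1 or 3 (highest value of the adjusted p 0.0632). F52A8.3 lost its call without any 1 array but M0 replicate 2 (highest value of the adjusted p 0.113). The differences of Y39B6A.1 and kqt-2 were not called with scan day as a random block (adjusted p = 0.0632 and 0.0623).

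In the other direction, C25F9.2 had 178.5, 141.1 and 116.9 in M24, against 26.5, 30.2 and 28.9 in M0 (2.33 ± 0.19, adjusted p = 0.00154), while all cells had 2352, 3367, 2667 and 3755 in R24 and 24.1, 25.3 and 22.7 in R0 (difference -4.49 ± 0.3, adjusted p = 2.52e-05). F26E4.5 had 87.5, 44.9 and 63.6 in M24, against 18.8, 21.2 and 18.5 in M0 (1.69 ± 0.25, adjusted p = 0.00764), and 356.7, 1546, 1613 and 1595 in R24 and 22.8, 28 and 21.8 in R0 (difference -3.88 ± 0.64). Y97E10AR.2 fell in muscle, with 154.1, 207.4 and 56.9 in M24, against 721.1, 793.6 and 840.7 in M0 (-2.68 ± 0.45, adjusted p = 0.0108), and was raised in all cells (1.36, difference -3.94 ± 0.62). sdz-38, one of the largest falls in muscle, had 69.4, 75.7, 60.2 and 119.4 in R24 and 105.6, 52.3 and 137.5 in R0 (difference -4.12 ± 0.5). R04B5.5, another, changed by -0.29 in all cells (difference -4 ± 0.46). M0 muscle was the high group of the 4 in both genes. Among the 1251 genes raised in M24, 51 were called higher and 19 lower in muscle by this difference, and among the 1315 lowered genes 83 were called lower and 27 higher. Levels of R24 and R0 were normalized apart from those of muscle, so that they are compared with them only roughly.
 The difference of F26E4.5 was not called with scan day as a random block (adjusted p = 0.117).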

How the data were processed

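Total RNA of 13 samples was hybridized to Affymetrix C. elegans arrays. The authors summarised probes by RMA (GeneTraffic, version not given in the sources used here) and deposited intensities on a linear scale. The scanner records that the authors deposited hold settings and no measurements, and chip lot and scan day were read from them for 12 arrays. Whether both times were normalized in 1 run is not given in the sources used here. Arrays were grouped by their titles.

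Intensities were log2-transformed, the 6 muscle arrays were quantile normalized, and M24 was set against M0 with limma 3.58.1 in R 4.3.3 (lmFit, eBayes), with Benjamini-Hochberg adjustment over 22548 probe sets, an adjusted p under 0.05 and a fold of at least 1.7. The difference of the time changes was fitted to the deposited log2 values of all 13 arrays. R24 minus R0, from the 7 reference arrays, was added after the data had been seen, as was a fit of the difference with scan day as a random block (duplicateCorrelation, 12 arrays). The labels call the replicates biological without saying that cultures were separate, so p-values measure only the spread between arrays, whose number limits the precision.

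Of the probe sets 20766 named 1 gene in GEO's platform annotation, 887 several and 895 none, and 20701 of the first were matched to a RefSeq gene. Each of 17118 genes is given by the probe set, naming it alone, with the highest mean over 13 arrays, and 2981 genes had more than 1. The tests were tried on simulated data.

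Members and gene lists were chosen with earlier results of these data known, and the name pattern that collects chemoreceptors was corrected after their values were seen. The text names myo-3, the 10 largest called rises and falls, up to 4 called genes of each list and direction (the smallest p where none was called), all muscle regulators and Hox genes, the 5 called genes with the largest called difference from all cells in each direction, and the 3 brightest uncalled sarcomere genes. unc-54, rpt-6, rpn-13 and pbs-7 were added after their values were seen, which makes 222 genes. Alternatives were the deposited values, joint normalization of 13 arrays, within-array ranks, median centring, a filter on dim probe sets, all probe sets of a gene, array weights, an intensity trend with robust prior, a replicate block, other fold minimums, and leaving out each array. Plots came from matplotlib 3.10.9 under Python 3.11.15.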

Additional observations from a re-analysis of the deposited data

Results flagged for a closer look

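In 32 of the 222 genes named above the time change in muscle differed from that in all cells by the limma test on 13 arrays, with 1.04% of all genes called higher and 0.952% lower. Differences above 0, on the log2 scale, were found for gst-31 (4.37), Y39B6A.1 (3.95), kqt-2 (3.40), col-97 (3.18), F52A8.3 (3.18), gst-39 (3.17), peb-1 (3.11), W06H8.2 (3.04), cpn-4 (2.84), gst-5 (2.55), col-76 (2.03), nhr-213 (2.02), cpr-1 (1.90), nra-1 (1.85), ugt-48 (1.82), egl-1 (1.63), pbs-7 (1.55) and prdx-2 (1.48). Differences below 0 were found for C25F9.2 (-4.49), sdz-38 (-4.12), R04B5.5 (-4), Y97E10AR.2 (-3.94), F26E4.5 (-3.88), str-148 (-3.04), F21H7.3 (-3.01), K08E7.8 (-2.77), F35D2.3 (-2.56), F48D6.4 (-2.54), sri-19 (-2.25), pyk-2 (-2.23), icl-1 (-2.01) and gst-22 (-1.94). With scan day as a random block, on 12 arrays without R24 replicate 4, 15 of the 32 were called. Whichever 1 array was left out 24 were called, the others being cpr-1, gst-5, nhr-213, prdx-2, icl-1, pbs-7, nra-1 and col-76. Among the 13 arrays, those whose loss ended the call numbered 11 for cpr-1 and gst-5, 10 for nhr-213 and 9 for prdx-2. They numbered 8 for icl-1, 5 for pbs-7, 2 for nra-1 and 1 for col-76.

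R24 was the only group with enough arrays to look for a single outlying one, and chance alone gives such an array in about 1 of 20 groups. It was found in 11 of the 222 genes, on intensities as deposited, which is near that chance rate. The 11 are listed because they met the rule. On R24 replicate 4, tatn-1 had an intensity of 670.0 where the others had 422 to 440.0, glh-4 had 364 where they had 187 to 194, pat-10 had 755 where they had 1570.0 to 1620.0, hlh-8 had 42.3 where they had 53.6 to 55.3 and cho-1 had 85.7 where they had 82.1 to 82.7. On R24 replicate 3, nra-1 had 1320.0 where the others had 1700.0 to 1780.0, dnj-20 had 219 where they had 336 to 350.0, pfk-1.1 had 154 where they had 224 to 233 and hnd-1 had 68 where they had 40.5 to 40.9. On R24 replicate 1, F26E4.5 had 424 where the others had 1660.0 to 1710.0 and sdha-1 had 294 where they had 221 to 232.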

How the results depend on the processing

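Against 1647 raised and 1687 lowered probe sets, array weights gave 2478 raised, and leaving out 1 array gave 715 to 2349 raised and 817 to 1989 lowered. For the difference between muscle and all cells 211 were called higher and 224 lower. Array weights gave 369 and 390, and leaving out 1 array gave 92 to 420 and 114 to 302. Scan day as a random block, chosen after seeing the data, gave 37 and 35 on 12 arrays, where the fit without a block gave 115 and 141. Of 202 called genes named above, 165 kept their call as deposited, 152 after median centring, 175 on within-array ranks, 194 with 13 arrays normalized together, 196 with array weights, 199 with an intensity trend and robust prior and 170 of 171 left by the filter on dim probe sets, while leaving out 1 array ended 8 to 79 calls and 0 changed direction. Of the 20 uncalled genes, 5 were called with array weights, 4 with an intensity trend and 2 without dim probe sets.

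Lowered genes as deposited, on ranks and after median centring numbered 3, 1 and 2 in the sarcomere list, 8, 8 and 7 in attachment, and 3, 7 and 3 in calcium and excitation. As deposited and after median centring they numbered 3 and 3 in the dystrophin complex and 1 and 1 among regulators. In the sarcomere list array weights gave 8 lowered and 1 raised and the intensity trend gave 9 lowered. Leaving out 1 array gave 2 to 6 lowered in the sarcomere list (median -0.48 to -0.12), 5 to 12 in calcium and excitation (0 to 1 raised, median -0.93 to -0.59), 0 to 1 raised receptors, 5 to 8 lowered in the dystrophin complex and 2 to 6 among regulators (median -1.11 to -0.82). Medians as deposited were -0.48 for calcium and excitation, -0.78 for receptors and -0.80 for regulators. On ranks they were -0.54 for attachment, -0.57 for calcium and excitation, -0.71 for receptors, -0.85 for the dystrophin complex, -0.76 for regulators and 1.24 for the proteasome. After median centring they were -0.53 for calcium and excitation and -0.84 for receptors. With the dim filter, array weights and all probe sets of a gene they were -1.04, -0.70 and -0.70 for calcium and excitation, and -1.11, -0.84 and -0.85 for regulators. The median of the mitochondrial ribosome list changed sign as deposited (0.0941) and after median centring (0.0412), and that of the antioxidant list lay between -0.00333 without M0 replicate 2 and 0.257 without M0 replicate 1. The cause of these shifts was not tested.

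Deviations of same-numbered M24 and M0 arrays from their group means correlated at -0.17, -0.24 and -0.36, and those of differently numbered arrays at -0.0424 to 0.322. Deviations from a group mean depend on each other, so these values cannot settle whether replicate numbers paired the samples. With the replicate number as a block limma called 624 probe sets raised and 726 lowered, 96 differences higher and 116 lower, and lowered genes numbered 2 in the sarcomere list, 6 in attachment, 5 in calcium and excitation and 2 among regulators, and 121 of the 202 genes kept their call.

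With 3 arrays a group and separate chip lots for each time, neither group's spread includes that between lots. M24 replicate 3 differed most from its group. RMA compresses large changes, and weak signals carry no detection call here.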
